A study of Mus musculus with 40 samples.

Results

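The aorta libraries of this series separated along a main axis of variation on which libraries of every genotype and diet lay on both sides, and the genes behind that axis are described here. A principal component analysis was run on 19 of the 20 aorta libraries, out of 40 samples of the series, over the 11380 protein-coding genes with a mean of at least 1 CPM (counts scaled to the total of the library), on centred and unscaled log2(CPM + 1). The first component (PC1) held 47.9% of the variance and the second 12.98%. The libraries were split by the sign of their PC1 score, with library R-10 set to the positive side, which gave 11 libraries on the positive and 8 on the negative side. Because the sides were selected on the same counts, every difference in a gene between them is a description and carries no test.

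RNA was taken from whole aortas, freed of fat, of C57BL/6 mice that were put at 6 weeks of age, and kept for 18 weeks, on a standard-fat diet (SFD, 10% of energy from fat, labelled SD) or a high-fat diet (HFD, 60%). EC-EGFR-KO mice were EGFR flox/flox animals bred to B6.Cg-Tg(Tek-cre)1Ywa/J, and EC-EGFR-WT controls carried the Cre transgene without loxP sites. Cre is driven here by the Tie2 (Tek) promoter, is not inducible, and is known to act in blood cells as well as in endothelium. Sex and time of tissue collection are not given in the sources used here. The negative side held R-1, R-2 and R-3 of WT SFD, R-6, R-7 and R-8 of WT HFD, R-11 of KO SFD and R-16 of KO HFD. The positive side held R-4 and R-5 of WT SFD, R-9 and R-10 of WT HFD, R-13, R-14 and R-15 of KO SFD, and R-17 to R-20 of KO HFD.

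The aortic wall is built of smooth muscle cells between sheets of elastin and collagen, with a lining of endothelium on the blood side and an adventitia of fibroblasts, nerves and immune cells outside. Bulk RNA adds up all of these cells and any blood left in the vessel. Many of its genes also follow the day, because a molecular clock runs in vessel cells: Arntl (BMAL1) pairs with Clock or Npas2 to switch on Dbp, Tef and the Per genes at E-boxes, and the products of such targets then repress the pair, so that Arntl and Dbp peak at opposite times of day.

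Total counts lay between 17520161 and 36419598 per library, and 15315 genes passed the filter for the gene-wise fit. The library R-12 (KO SFD) was left out because its counts differed from those of R-1 (WT SFD) by less than sampling noise: the median chi-square over genes was 0.0277, against 0.455 for noise alone and 1.60 for the closest other pair. Which label of this pair is right is not known. R-1 was used as WT SFD throughout, so every comparison of genotypes and every WT SFD range below depends on that label. On the second component, R-5, R-10 and R-20 stood apart from the rest of the positive side, with scores of −17.9, −26.5 and −19.8 against 6.26 to 20.2. Gene levels are given as CPM after TMM scaling of the library sizes, called FPM below. Genes that define smooth muscle were high in all libraries: the lowest level of Acta2, smooth muscle actin, was 15816 FPM, and the lowest level of Myh11, smooth muscle myosin, was 7691 FPM.

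**Figure D1:**
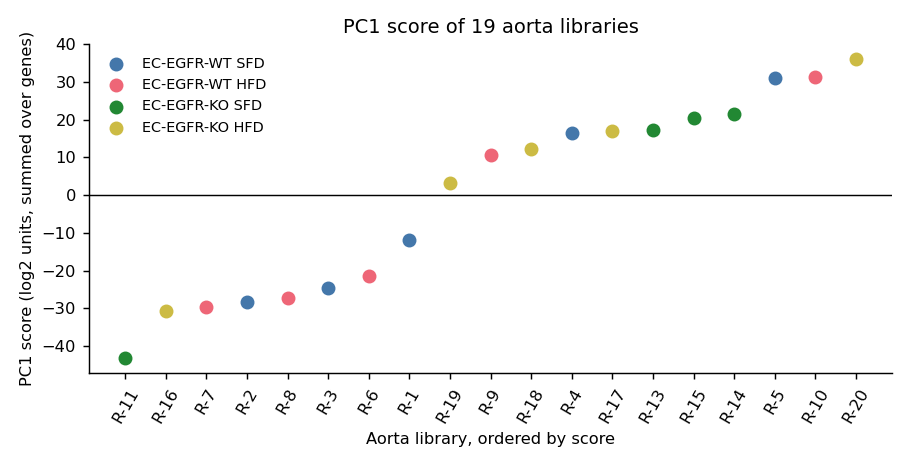
PC1 score (y axis, log2 units) of the 19 aorta libraries (x axis, ordered by score), coloured by genotype and diet, with a line at 0. All 4 groups have libraries on both sides, and the gap at 0 lies between R-1 at −11.8 and R-19 at 3.20.

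PC1 scores ran from −43.1 in R-11 to −11.8 in R-1 on the negative side (median −27.8), and from 3.20 in R-19 to 36.1 in R-20 on the positive side (median 17.3). R-1 and R-19 were therefore the libraries just outside and just inside the positive side. Labels were not used by the rule, so the score could be tested against them. The mean score differed between HFD and SFD by −0.13 when averaged over genotypes (exact permutation test with diet labels exchanged within genotype, two-sided p = 0.991, adjusted p = 0.991). KO libraries scored 11.1 higher than WT libraries when averaged over diets (exact permutation test within diet, p = 0.366, adjusted p = 0.549), and 7 of 9 KO against 4 of 10 WT libraries lay on the positive side (Fisher's exact test, p = 0.170). The spread within a group was much larger than these differences, with SDs of 24.5 to 31.5. Without R-11 and R-16, which are all the KO libraries of the negative side, the KO difference was 24.9 (exact permutation test, p = 0.0352); these libraries are chosen by the outcome, so this value describes only their weight. Mean total counts differed by −2345502 between the positive and the negative side (exact permutation test, p = 0.268, adjusted p = 0.549). In each of the 4 groups, the negative-side libraries carried lower label numbers than the positive-side ones. What the numbers stand for is not given in the sources used here, and their part in the result was not tested.

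Of the 15315 genes, 652 (4.26%) were at least 2-fold higher on the positive side and 725 (4.73%) on the negative side, in a fit with the 4 genotype-diet groups as covariate. With plain CPM library sizes, the scaling used for PC1, the balance turned to 778 and 592 genes, and the median of all genes moved from −0.01 to 0.07. In 1119 genes (7.31%) every positive library lay above every negative one, and in 1143 (7.46%) the reverse. These shares are the background for all counts below; since the split was made on these genes, nothing beyond their size is read from them. The median log2 difference over all genes was −0.01.

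The circadian clock gave some of the most extreme genes of the axis. All 5 genes of the Arntl phase were higher on the positive side, with a median log2 difference of 1.71, and 9 of 10 genes of the Dbp phase were lower there, with a median of −1.08. These arms were formed after the data had been seen. By its loading on PC1, Arntl had rank 4 from the positive end and Dbp rank 3 from the negative end of the 11380 genes. The stretches upstream of the start of 3 Dbp-phase genes and of Arntl are shown because the E-box CACGTG, in capitals, is where the Arntl protein is known to bind. They come from RefSeq, build GRCm38.p6, and run 5′ to 3′ on the strand of the gene up to its start.

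Ciart, chr3:95882229-95882478, minus strand: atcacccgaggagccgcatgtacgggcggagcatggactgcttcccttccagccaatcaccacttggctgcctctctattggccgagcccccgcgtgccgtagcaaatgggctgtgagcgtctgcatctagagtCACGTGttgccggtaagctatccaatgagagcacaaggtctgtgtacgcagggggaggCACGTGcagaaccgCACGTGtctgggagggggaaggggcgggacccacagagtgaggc

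Tef, chr15:81802423-81802672, plus strand: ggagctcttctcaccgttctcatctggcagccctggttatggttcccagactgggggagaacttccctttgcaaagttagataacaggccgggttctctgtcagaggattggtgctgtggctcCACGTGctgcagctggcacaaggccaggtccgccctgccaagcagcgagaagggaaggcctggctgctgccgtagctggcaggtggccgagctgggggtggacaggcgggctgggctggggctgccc

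Bhlhe41, chr6:145865421-145865670, minus strand: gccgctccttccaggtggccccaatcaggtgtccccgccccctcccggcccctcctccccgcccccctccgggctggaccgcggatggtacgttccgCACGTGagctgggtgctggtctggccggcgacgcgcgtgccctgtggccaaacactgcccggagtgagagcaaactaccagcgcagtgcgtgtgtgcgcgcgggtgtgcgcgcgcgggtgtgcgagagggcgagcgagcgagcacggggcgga

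Arntl, chr7:113207215-113207464, plus strand: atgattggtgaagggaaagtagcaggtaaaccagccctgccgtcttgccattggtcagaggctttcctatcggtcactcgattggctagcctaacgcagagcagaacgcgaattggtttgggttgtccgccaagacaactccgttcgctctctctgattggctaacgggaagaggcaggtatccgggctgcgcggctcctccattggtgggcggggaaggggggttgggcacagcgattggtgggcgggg

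The window of Ciart, a repressor of the clock, holds 3 copies of CACGTG, which begin 116, 58 and 44 bases before the start. Tef holds 1 copy at 127 bases and Bhlhe41 holds 1 copy at 153 bases, while the letters are not in the Arntl window. CACGTG reads the same on both strands and was searched in 250 bases before each start. It was found in 4 of the 9 Dbp-phase genes with an entry (Bhlhe41, Ciart, Per1 and Tef), in 1 of the 5 Arntl-phase genes (Cry1), and in 6.86% of 27025 genes (6.02% of their 32851 windows). The 3 Dbp-phase windows shown all come from the 4 Dbp-phase genes that hold the motif, and they do not stand for the whole arm. The matches are descriptions of letters and are not binding data.

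Arntl lay between 46.8 and 66.3 FPM on the positive side (median 58.1) and between 0.826 and 41.4 FPM on the negative side (median 22.6). The sides did not overlap, and the negative side was low to very different degrees: R-7 held 0.826, R-11 held 3.72 and R-16 held 11.8 FPM, whereas R-1, R-2 and R-3 held 36.4, 41.4 and 37.3 FPM. The SD of log2(FPM + 1) was 0.13 among positive and 1.64 among negative libraries. The difference was 3.62-fold, or 1.86 ± 0.46 on the log2 scale (± SE here and below). Npas2, which can replace Clock as partner of Arntl, behaved alike, with 54.3 to 98.8 FPM (median 63.9) against 3.52 to 50.1 FPM (median 28.4). Clock itself was 1.96-fold higher on the positive side, at 116 to 167 FPM (median 127) against 42.7 to 97.3 FPM (median 75.6). Both genes had no overlap between the sides. Nfil3, a repressor of Dbp-type promoters, had 24.0 to 74.1 FPM (median 43.8) against 4.24 to 36.0 FPM (median 9.81), a 4.48-fold difference with overlap through R-1.

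Dbp, an output transcription factor of the clock, showed the mirror image, with 28.9 to 321 FPM on the negative side (median 116) and 5.27 to 27.6 FPM on the positive side (median 12.9). Again the sides did not overlap, R-7 was the highest library, with R-11 at 266 and R-16 at 207 FPM next to it, and the difference was 11.5-fold (−3.52 ± 0.39). Ciart lay between 1.69 and 46.9 FPM on the negative side (median 4.91) and between 0.703 and 6.20 FPM on the positive side (median 1.22), with overlap, and its negative-side values were again highest in R-7. Tef, a relative of Dbp, had 115 to 530 FPM (median 226) against 80.6 to 151 FPM (median 118), a 2.39-fold difference. Per3 and Bhlhe41, named after their values were seen, were 3.30-fold and 2.88-fold higher on the negative side, both with overlap. Per3 had 17.3 to 130 FPM against 10.6 to 23.3 FPM, and Bhlhe41 had 14.6 to 86.5 FPM against 11.2 to 20.7 FPM. Both were highest in R-7, while R-2 and R-3 lay within the positive range. Nr1d1 and Nr1d2, the REV-ERB repressors of Arntl, differed by −0.86 ± 0.24 and −0.90 ± 0.20 on the log2 scale, and Per1 by 0.01 ± 0.40.

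The scores of the clock arms ran in opposite directions through the libraries, with r = −0.95 over the 19 libraries, which share one tissue and one scaling. The spread was not a matter of PC1 alone: R-7, R-11 and R-16 had Dbp-phase scores of 1.98, 1.46 and 1.05, while R-2, with nearly the same PC1 score as R-7, had −0.50. A score is the mean over the list's genes of log2(FPM + 1) centred over libraries. Without R-7, R-11 and R-16, the median of the Arntl-phase genes fell from 1.71 to 0.97 and that of the Dbp-phase genes was −0.78. Of the 18 genes of the wider clock list, 3 were at least 2-fold higher on the positive and 5 on the negative side, with a median of −0.66.

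**Figure D2:**
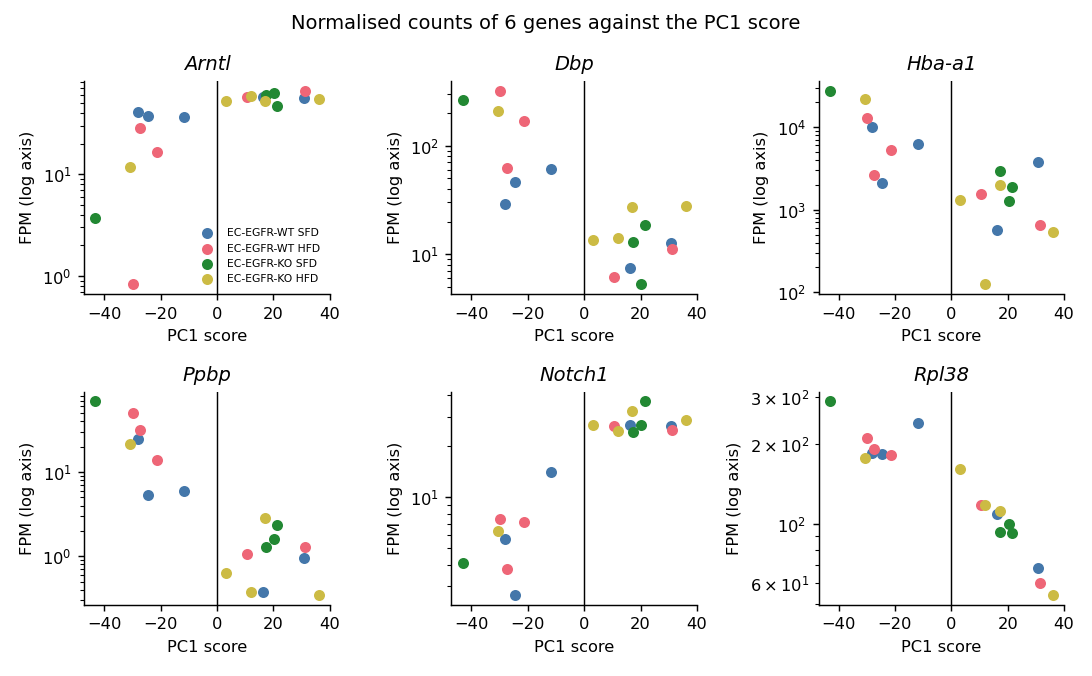
Level in FPM (log axis) of 6 genes against the PC1 score in the 19 libraries, coloured by genotype and diet, with a line at a score of 0. Arntl is flat on the positive side (46.8 to 66.3 FPM) and spread on the negative side, and Rpl38 falls along the positive side from 161 FPM in R-19 to 54.1 FPM in R-20.

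The lists of platelet, red blood cell and lymphocyte genes had the lowest medians of all lists. In bulk RNA, fewer cells of a type and less RNA per cell cannot be told apart. Of the 8 red blood cell genes that passed the filter, 7 were at least 2-fold higher on the negative side and 1 on the positive side (median −2.75). Hba-a1, an alpha-globin chain, lay between 2102 and 27614 FPM there (median 8066) and between 125 and 3731 FPM on the positive side (median 1316). The sides overlapped, through R-3 and R-8 on the low end of the negative side and R-5 and R-13 on the high end of the positive side, and the difference was 7.84-fold (−2.97 ± 0.55). R-11 and R-16 were the highest libraries, with 27610 and 21640 FPM, and R-18 was the lowest. Hba-a2, Hbb-bs and Hbb-bt differed by −2.81 ± 0.54, −2.69 ± 0.55 and −2.65 ± 0.57. Hba-a1 and Hba-a2 are near-identical copies, as are the beta chains, so the split of reads between them is uncertain. Slc4a1, the anion exchanger of the red cell membrane, had 0.807 to 10.3 FPM (median 2.44) against 0.0477 to 1.20 FPM (median 0.282). The summed globin and red cell genes ranged from 6898 to 80312 FPM on the negative and from 453 to 13903 FPM on the positive side. Without R-7, R-11 and R-16 the median of the list was −1.39.

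The platelet list was added after the data had been seen and holds genes from the negative end of PC1. Its separation of the sides follows in part from this choice and is not ranked against that of the globins. Of the 14 measured platelet genes, 12 were at least 2-fold higher on the negative side, 6 without any overlap, with a median of −3.98. On log2(FPM + 1) the platelet median was −1.44, against −2.21 for the red blood cell genes. Ppbp, a chemokine stored in platelet granules and the lowest loading of all genes on PC1, lay between 5.40 and 68.9 FPM on the negative side (median 23.1) and between 0.346 and 2.88 FPM on the positive side (median 1.06). The lowest negative library was thus above every positive library, and the difference was 25.4-fold (−4.67 ± 0.43). Itga2b, the platelet fibrinogen receptor subunit, had 7.46 to 59.9 FPM (median 18.5) against 2.62 to 5.53 FPM (median 4.05). Gp9, part of the receptor for von Willebrand factor, had 1.11 to 16.3 FPM (median 3.40) against 0 to 0.350 FPM (median 0.235). Clec1b and Treml1, platelet surface receptors, differed 8.10-fold and 24.5-fold without overlap, and Tubb1, the platelet tubulin, differed 17.4-fold with overlap. Gp6, the collagen receptor, had 0.395 to 5.02 FPM against 0 to 0.220 FPM. Pf4, which macrophages also express, differed by −1.22 ± 0.19, and Itgb3, an integrin chain that vessel wall cells share, by 0.41 ± 0.15. The highest platelet score was that of R-11 (2.04), and no positive library lay above −0.41, whereas R-3 and R-1 on the negative side had −0.16 and 0.06. Without R-7, R-11 and R-16 the median was −2.78.

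Lymphocyte genes were far higher in 2 libraries, R-11 and R-16, than in the rest. Of 19 measured B and T lymphocyte genes, 16 were at least 2-fold higher on the negative side (median −2.45), but none separated the sides. Pax5, the transcription factor of B cells, lay between 0.338 and 12.5 FPM on the negative side (median 1.09) and between 0 and 0.634 FPM on the positive side (median 0.200), a 17.2-fold difference. Ighm, the mu heavy chain, had 13.2 to 114 FPM (median 19.01) against 7.62 to 20.1 FPM (median 13.2). Cd79a, named after its values were seen, held 35.0 FPM in R-16 and 17.5 FPM in R-11, while the next library, R-6, held 3.99 FPM. The score of the list was 2.29 in R-16 and 2.00 in R-11 against 0.36 at most in the other 17 libraries. Without these libraries the median was −0.66. T cell genes named after their values were seen moved less, with −0.64 ± 0.37 for Cd4 and −0.47 ± 0.52 for Lck. Macrophage genes had a median of −0.12 (0.07 without R-16, 0.13 without R-11 and R-16), neutrophil genes of −0.84 (−0.43 without R-16) and mast cell genes of −0.68; in these lists 1 of 19, 2 of 6 and none of 6 genes were at least 2-fold higher on the negative side.

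Genes for ribosomal proteins followed the axis most closely of the 35 lists (r = −0.97 between list score and PC1 score, n = 19). All 42 that passed the filter were lower on the positive side, 35 of them without overlap, although only 4 reached 2-fold, and the median was −0.76. Rps6, a protein of the small subunit, lay between 629 and 1008 FPM on the positive side (median 800) and between 1116 and 1348 FPM on the negative side (median 1221). Rplp0, of the large subunit, had 786 to 1120 FPM (median 885) against 1148 to 1501 FPM (median 1246). Neither gene overlapped between the sides. Rpl38 showed the largest difference of the list, at 54.1 to 161 FPM (median 99.8) against 177 to 288 FPM (median 188), or 2.24-fold. Within the positive side the list still followed the score (r = −0.97, n = 11), where the lowest libraries were R-20, R-10 and R-5, and within the negative side less so (r = −0.60, n = 8). These points share the genes of the PCA with the score. The nuclear-encoded respiratory chain moved alike: 37 of 38 genes were lower on the positive side, 24 without overlap and none by 2-fold, with a median of −0.60. Cox6c, a subunit of cytochrome oxidase, had 185 to 295 FPM (median 229) on the positive and 321 to 470 FPM (median 421) on the negative side, and Uqcrq, of complex III, differed 1.98-fold without overlap, while Atp5a1, the catalytic-core alpha chain of ATP synthase, differed by −0.09 ± 0.05.

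Ribosomal and respiratory chain transcripts are short, and transcript length moved with the axis. Over all genes tested, the median log2 difference between the sides was −0.51 in the shortest of 5 equal classes of transcript length (median length 860 bases) and rose through −0.23, −0.04 and 0.13 to 0.41 in the longest class (6436 bases). Within each library, the difference between the longest and the shortest class was 0.01 to 0.64 on the positive side (median 0.30) and −0.58 to −0.26 on the negative side (median −0.39), with r = 0.98 against the PC1 score over 19 libraries that share the genes of the PCA. GC content moved the other way, from 0.18 in the lowest of 5 classes to −0.19 in the highest. When the trend with length and GC content was taken out of every library, PC1 held 36.7% of the variance, every library kept its side, and the scores correlated with the original ones at r = 0.99. The ribosomal median then changed from −0.77 to −0.48, the respiratory chain from −0.59 to −0.33, skeletal muscle from −0.48 to −0.21 and the extracellular matrix from 0.39 to 0.17, all on log2(FPM + 1). On that scale the platelet, red cell, Arntl-phase and immediate-early medians changed little (−1.44 to −1.38, −2.21 to −2.09, 1.81 to 1.71 and 0.87 to 0.95). Numbers for RNA integrity are not given in the sources used here, and the part of RNA quality in the result was not tested.

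**Figure D3:**
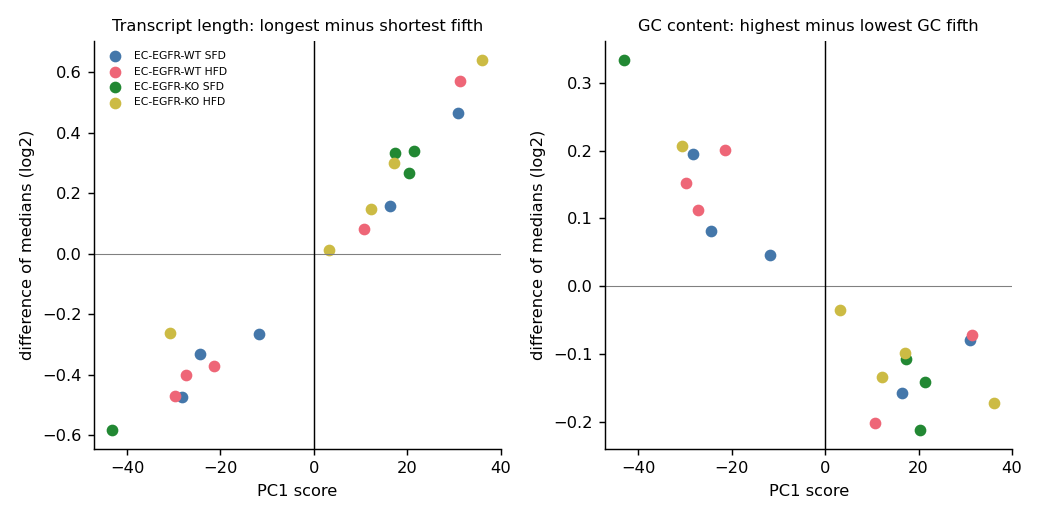
Difference between the medians of the longest and shortest of 5 transcript length classes (left) and of the highest and lowest of 5 classes by GC content (right), in log2 units, against the PC1 score of the 19 libraries. The length difference is above 0 in all positive-side and below 0 in all negative-side libraries.

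The endothelium list was higher on the positive side, with 18 of 19 genes above 0, 5 of them at least 2-fold, and a median of 0.76. Ptprb, the endothelial phosphatase VE-PTP, lay between 217 and 405 FPM on the positive side (median 287) and between 34.2 and 215 FPM on the negative side (median 82.7). Vwf, von Willebrand factor, had 281 to 542 FPM (median 425) against 46.6 to 367 FPM (median 173), and Pecam1, a junction protein, had 411 to 931 FPM (median 787) against 177 to 692 FPM (median 364). The lowest libraries were R-3 and R-8, with 177 and 199 FPM of Pecam1, while R-1 and R-7 overlapped with the positive side. Notch1, with rank 3 by loading, and S1pr1, the receptor of sphingosine-1-phosphate, with rank 12, both act in endothelium but were not on the list. They were named for these loadings, so their separation of the sides follows from how they were chosen. Notch1 had 24.4 to 36.9 FPM (median 26.6) against 2.65 to 14.1 FPM (median 5.98), and S1pr1 had 23.9 to 60.9 FPM (median 35.5) against 5.08 to 21.6 FPM (median 6.91), neither with overlap. Other defining genes moved little, with 0.01 ± 0.32 for Cldn5, 0.41 ± 0.30 for Nos3 and −0.48 ± 0.32 for Egfl7, named after their values were seen. Without R-11 and R-16 the median of the list was 0.46. Within the positive side the score fell with PC1 (r = −0.72, n = 11). Lymphatic endothelium had a median of 0.29, with 1 of 7 genes at 2-fold: Mmrn1, at 0 to 2.58 FPM against 0 to 2.22 FPM (1.46 ± 1.08).

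Extracellular matrix genes were slightly higher on the positive side, with 25 of 28 above 0, 1 at 2-fold and a median of 0.41. Col1a2, a chain of type I collagen, had 1967 to 4857 FPM (median 2766) against 1857 to 2627 FPM (median 2107), and elastin (Eln) overlapped widely, with 4758 to 6900 FPM (median 5762) against 2364 to 7151 FPM (median 5188). Lox, the enzyme that cross-links both, did not overlap, with 254 to 363 FPM against 94.9 to 250 FPM (1.94-fold; named after its values were seen). The highest matrix scores were those of R-5, R-20 and R-10 (0.43, 0.42 and 0.34), the libraries apart on the second component. Fibroblast and adventitia genes had a median of 0.39, with 14 of 21 above 0 and 7 below. Only 1 of them reached 2-fold and separated the sides: Pdgfra, a receptor of fibroblasts, with 106 to 234 FPM (median 149) against 61.8 to 101 FPM (median 72.3). Cartilage-like matrix genes had a median of 0.19; Prg4, lubricin, reached 542 FPM in its highest negative library against a negative-side median of 5.43 FPM.

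Immediate-early genes, which are transcribed within minutes of a stimulus or of tissue handling, had a median of 0.89, with 19 of 20 above 0 and 7 at least 2-fold, and none separated the sides. Fos had 181 to 4135 FPM on the positive side (median 548) and 63.7 to 754 FPM on the negative side (median 243). R-19 stood far above all others with 4135 FPM, followed by R-18 with 1483 FPM, and R-2 was the lowest. Nr4a2, an inducible nuclear receptor, had 12.1 to 187 FPM (median 28.3) against 5.58 to 20.4 FPM (median 9.16), a 2.90-fold difference. The score of the list was only loosely tied to PC1 (r = 0.41 over 19 libraries, and −0.71 within the positive side), since R-19 had the highest score of 2.48 next to the boundary. The heat shock genes had a median of 0.18 and none at 2-fold.

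**Figure D4:**
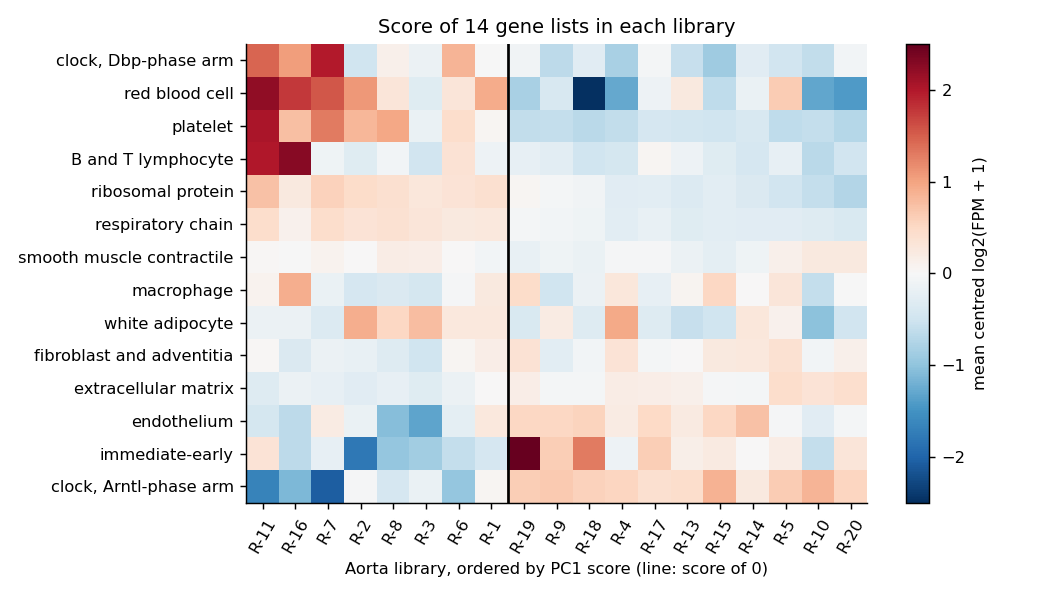
Score of 14 gene lists (rows; mean centred log2(FPM + 1) of the list's genes) in the 19 libraries (columns, ordered by PC1 score, with a line at 0). Platelet scores are no higher than −0.41 in any positive-side library, and lymphocyte scores stand out in R-11 and R-16.

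Muscle lists split. The contractile genes of smooth muscle had a median of −0.05, with 9 of 19 higher on the positive side, and their members went both ways without overlap: 4 with all positive libraries above, and 6 with all negative libraries above. Acta2 had 15816 to 22231 FPM (median 17507) on the positive and 22883 to 29170 FPM (median 27957) on the negative side, and Myl6, a myosin light chain, had 3922 to 6074 FPM (median 4762) against 6609 to 10481 FPM (median 8681). Myocd, the transcriptional coactivator of the contractile genes, went the opposite way, with 46.2 to 223 FPM (median 65.9) against 22.5 to 35.2 FPM (median 24.5), and was highest in R-20, R-10 and R-5. Myh11 differed by 0.08 ± 0.08. Of 12 measured skeletal muscle genes, 11 were lower on the positive side (median −0.76), but the list's defining members were near 0, with at most 4.19 FPM of Ckm, the muscle creatine kinase, in any library. The gene that led it was Tcap, a titin cap protein, with 44.8 to 99.1 FPM (median 75.6) on the positive and 159 to 732 FPM (median 338) on the negative side, which did not overlap. Cardiac muscle genes had a median of −1.04 over 6 genes, and Myl4, an atrial myosin light chain, had 4.44 to 8.30 FPM against 8.88 to 17.4 FPM, while Ryr2, a calcium release channel, differed by 0.91 ± 0.17.

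Adipose genes did not lead the axis. White adipocyte genes had a median of −0.30 with none of 20 at 2-fold, and Fabp4, a fatty acid carrier, had 79.0 to 264 FPM (median 109) against 157 to 337 FPM (median 203). Brown adipocyte genes had a median of −0.09, with 3 of 14 genes at least 2-fold higher on the positive and 4 on the negative side. Ucp1, the uncoupling protein, had 0.143 to 9.35 FPM (median 2.18) against 3.30 to 74.5 FPM (median 7.13), with R-8 at the top. Medians were −0.25 for fatty acid oxidation, 0.06 for lipid synthesis and −0.18 for glycolysis. Etfb, Mlxipl and Gapdh had the largest difference in these lists, at −1.16 ± 0.21, −1.11 ± 0.28 and −1.05 ± 0.16. Pericyte (−0.05), Schwann cell (0.30), neuron (0.16), mesothelium (0.18), interferon response (−0.26), cell cycle (−0.17), Hox (−0.19), unfolded protein response (−0.08) and nuclear-retained RNA (−0.45) lists stayed within 0.5 of 0 in their medians. The medians of the lipid synthesis, pericyte and unfolded protein response lists changed sign when the length and GC trend was removed, that of the neuron list did so without R-11 and R-16 (−0.15), and that of nuclear-retained RNA went from −0.54 to −0.73 on log2(FPM + 1) with the trend removed. In the Schwann cell, interferon and Hox lists, Kcna1, a potassium channel (2.76 ± 0.55), Rsad2, an interferon-induced antiviral protein (−1.61 ± 0.34), and Hoxa6 (1.41 ± 0.18) had the largest difference of their list. Malat1, a nuclear long RNA, differed by 0.87 ± 0.19 and Neat1, the RNA of paraspeckles, by −0.73 ± 0.24.

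**Figure D5:**
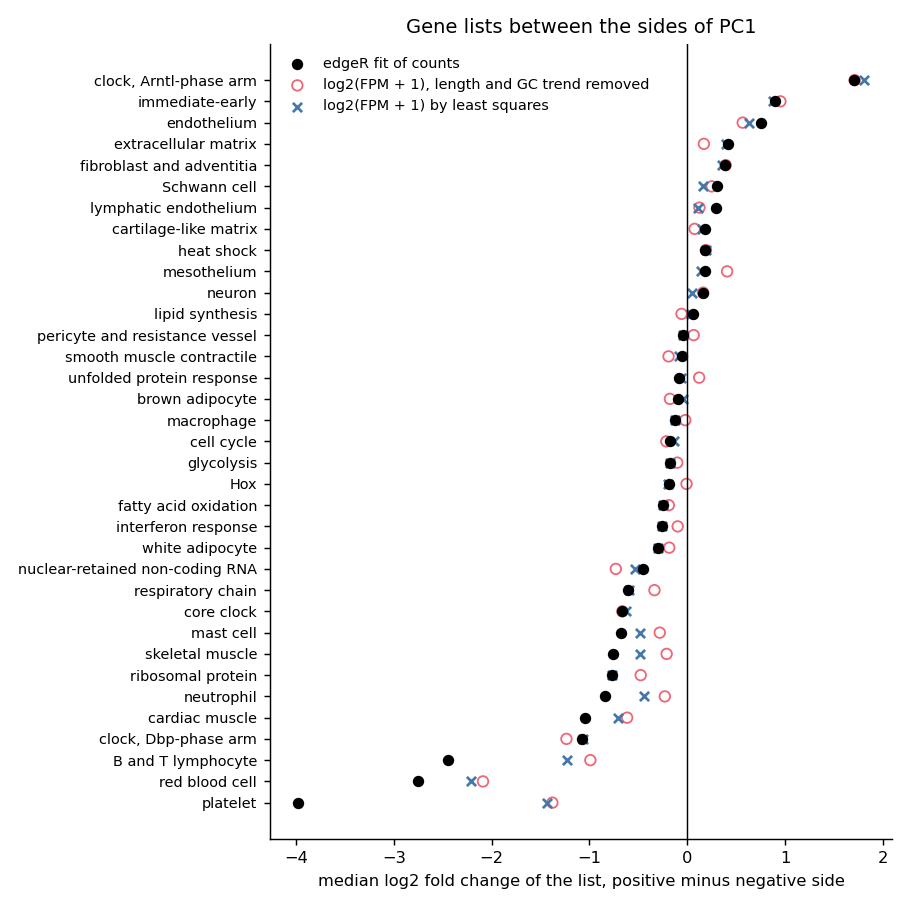
Median log2 difference (positive minus negative side) of each gene list in the edgeR fit (filled), on log2(FPM + 1) (cross) and after removal of the length and GC trend (open). Platelet, red blood cell and lymphocyte genes are lowest at −3.98, −2.75 and −2.45 in the edgeR fit, and the Arntl-phase clock genes highest at 1.71.

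Other genes at the positive end of PC1 belonged to no list. The gene with the highest loading was 4931406P16Rik, with 18.3 to 49.3 FPM (median 31.2) against 5.48 to 16.3 FPM (median 7.50), followed by Ston1, an endocytic adaptor, with 18.9 to 61.4 FPM (median 34.5) against 4.32 to 15.9 FPM (median 9.53). Neither overlapped. Gpc6, Nr2c2, Lrch3, Soga1, Abca6, Irs1 and Adcy9 differed 3.82-fold to 4.83-fold, of which Lrch3 and Irs1, the insulin receptor substrate, did not overlap. The paralogs 9930111J21Rik1 and 9930111J21Rik2 differed by 2.88 ± 0.38 and 1.98 ± 0.23, and reads may be split between them. At the negative end, Ctla2a, a protease inhibitor with a close paralog, had 6.67 to 95.9 FPM (median 24.1) against 0.594 to 4.43 FPM (median 1.95), a 16.2-fold difference. Pnmt, the enzyme that makes adrenaline, had 0.967 to 7.06 FPM (median 3.68) against 0.148 to 0.694 FPM (median 0.308). Neither overlapped between the sides. Pnmt starts at base 98386450 of chromosome 11, just past the end of Tcap at 98384953. The mean level was 202 CPM for Tcap and 1.86 CPM for Pnmt, and whether their counts are independent was not tested.

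Genes that are not protein-coding were not used to build the axis. Of the 2971 tested, 276 were at least 2-fold higher on the positive and 405 on the negative side (median −0.25). Among the 12344 protein-coding genes tested, 376 and 320 were (median 0.02). Over all 15315 genes the shares were 4.26% and 4.73%. The largest positive differences with a mean of at least 1 CPM were those of AC134468.1 (3.68 ± 0.58), Gm9845 (2.86 ± 0.48), Gm17791 (2.77 ± 0.49), Gm13410 (2.68 ± 0.27) and AC116841.1 (2.56 ± 0.48), all processed pseudogenes, whose reads can be shared with their parent genes. The largest negative ones were Gm37033 (−3.34 ± 0.45), Igkc (−3.31 ± 0.77), Ighd (−3.01 ± 0.61), Gm13868 (−3.01 ± 0.60) and Gm44291 (−2.98 ± 0.49). Igkc and Ighd encode immunoglobulin constant regions, and Igkc had 0.159 to 56.0 FPM on the negative side (median 2.88) against 0.0834 to 2.68 FPM (median 0.620).

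With the side as a term in the model, the biological coefficient of variation was 19.8%, against 28.6% without it, and the labelled comparisons could be made within sides. The side was itself cut from these counts, so a lower variation with it was fixed in advance and is not read as a result. The tests below are conditional on the side, and their p-values can be too small. Egfr, the targeted gene, lay between 29.9 and 54.3 FPM in WT and between 37.0 and 54.8 FPM in KO libraries, which overlapped; in whole aorta the deletion in endothelium cannot be checked by the count of the gene. Its KO difference was 0.10 ± 0.13 under SFD (edgeR quasi-likelihood test, adjusted p = 0.773) and 0.03 ± 0.13 under HFD (adjusted p = 0.978). In WT aortas, HFD changed 4 of 15315 genes (0.0261%; adjusted p under 0.05), all lower. Cyp2e1, a cytochrome P450 of fat and liver, fell from 9.27 to 32.1 FPM (median 22.9) to 0.704 to 3.14 FPM (median 2.02), with no overlap in 5 against 5 libraries (−3.53 ± 0.55, edgeR adjusted p = 0.0346). Cyp2f2, another P450, fell from 0.733 to 1.75 FPM to 0.0560 to 0.202 FPM (−3.28 ± 0.47, edgeR adjusted p = 0.0237). Pcx, pyruvate carboxylase, fell by 0.85 ± 0.14 (edgeR adjusted p = 0.0346), and Cpxm2, a carboxypeptidase-like protein, by 0.81 ± 0.14 (edgeR adjusted p = 0.0460), both without overlap. Leaving out any of R-2, R-4, R-7, R-8, R-9 or R-10 left 0 genes called.

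In KO aortas HFD changed 0 genes (0% of those tested) by edgeR, with 850 at an unadjusted p under 0.05, and the DESeq2 Wald test called 12. Levels of Cyp2e1 did not overlap there either, with 3.01 to 16.4 FPM under SFD and 0.328 to 1.96 FPM under HFD (−2.71 ± 0.58, edgeR adjusted p = 0.529). Cpxm2 had 143 to 149 FPM against 75.0 to 129 FPM (−0.54 ± 0.14, edgeR adjusted p = 0.737), again without overlap. Neither these genes nor Pcx and Cyp2f2 passed the test of a difference between the genotypes in the effect of the diet (edgeR, adjusted p = 1 for each). In KO aortas HFD moved Cyp2f2 by 0.01 ± 0.45, at no more than 0.696 FPM in any KO library, and Pcx by −0.36 ± 0.15. The difference between the genotypes in the diet effect was 3.29 ± 0.67 for Cyp2f2 (edgeR, unadjusted p = 0.000105) and 0.49 ± 0.20 for Pcx. Under SFD, 9 genes (0.0588%) differed between KO and WT, all lower in KO and all processed pseudogenes. Gm11991 had 6.35 to 7.76 FPM in KO against 12.5 to 17.8 FPM in WT libraries (−1.13 ± 0.15, edgeR adjusted p = 0.00764), without overlap. Gm5469 had 27.5 to 37.8 FPM against 47.2 to 55.5 FPM (−0.64 ± 0.09), and Gm6767, Gm5539 and Gm7551 differed by −0.97 ± 0.14, −1.04 ± 0.16 and −0.66 ± 0.11. Under HFD, 12 genes (0.0784%) differed, 11 of them processed pseudogenes lower in KO, among them Gm5469 (−0.64 ± 0.09, edgeR adjusted p = 0.00818), Gm11221 (−1.45 ± 0.20), Gm11991 (−0.98 ± 0.15), Gm6767 (−0.84 ± 0.13) and Gm7665 (−0.69 ± 0.11). Cd5l, a protein secreted by macrophages, was higher by 7.71 ± 1.39 (edgeR adjusted p = 0.0464), but 92.6 FPM in R-16 stood against at most 2.49 FPM in the other KO libraries under HFD. No gene was called under SFD without R-11, and none under HFD without R-16, although the differences of the pseudogenes stayed of like size: Gm11991 under SFD was at −1.14 ± 0.18 without R-11 (edgeR adjusted p = 0.0663) and Gm5469 under HFD at −0.59 ± 0.10 without R-16 (edgeR adjusted p = 0.0840). With R-12 used in place of R-1, so that the counts of this pair carried the KO SFD label, no gene was called under either diet. Since the right label is not known, the KO calls depend on it. Without the side in the model 0 genes were called under SFD and 2 under HFD. The interaction of genotype and diet gave 0 genes by edgeR, with 284 at an unadjusted p under 0.05.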

How the data were processed

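RNA-seq counts of 19 mouse aorta libraries were used. The authors deposited whole-number read counts per gene for 55335 genes, of which 25742 were at 0 in all libraries; the submitters' processing notes name HISAT2 2.1.0, featureCounts and mm10, while the study's methods name TopHat2, and the strand setting is not given in the sources used here. The kidney libraries were not used here. Principal components were computed on log2(CPM + 1) as stated in the report. FPM are CPM on TMM-scaled library sizes. Differences between sides came from edgeR 4.0.16 (R 4.3.3; limma 3.58.1) with the 4 groups as covariate, after the tool's default filter on low counts; labelled contrasts used the quasi-likelihood test with Benjamini-Hochberg adjustment and the side in the fit, and DESeq2 1.42.0 was an alternative. Scripts were tested on simulated data. A score's permutation tests were exact and two-sided. The labels do not say more of replicates than that they are separate samples, so p-values measure the spread between these samples.

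The sides, gene lists and tests were chosen with earlier results of these data known, and the platelet list and both clock arms were added after the data had been seen. Named genes were the 15 highest and 15 lowest loadings, from each list the 3 with the highest mean CPM and the 1 with the largest difference, the 5 highest and 5 lowest genes that are not protein-coding, at most 5 called genes per contrast and direction, and Egfr; these sets were the pool from which the text gives examples. Bhlhe41, Per1, Per3, Cry1, Cd79a, Cd4, Lck, Cldn5, Nos3, Egfl7, Lox and Ckm were outside the rule and were chosen after their values were seen.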

Additional observations from a re-analysis of the deposited data

Results flagged for a closer look

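Each library was compared with the others of its genotype-diet group for 12 measures, which made 48 comparisons, of which 12 stood apart by the gap to the nearest library (Dixon's test at 95%); chance alone gives about 1 in 20, but the measures share libraries and genes with each other and with PC1, so their number is not read against that share. In KO SFD, R-11 had a PC1 score of −43.1, against 17.3 in the nearest library. In WT SFD, R-1 had 36419598 total counts, against 23196910 in the nearest library. In KO HFD, R-16 stood apart in the Arntl-phase score (−1.13, nearest 0.39) and the Dbp-phase score (1.05, nearest −0.06). In KO SFD, R-11 stood apart in the ribosomal protein score (0.723, nearest −0.27) and the respiratory chain score (0.435, nearest −0.26). Platelet scores were 2.04 in R-11 (nearest −0.41) and 0.751 in R-16 (nearest −0.41). Lymphocyte scores were 2.00 in R-11 (nearest −0.13) and 2.29 in R-16 (nearest 0.05). In WT SFD, R-3 had an endothelium score of −1.33 (nearest −0.16). In WT HFD, R-10 had an extracellular matrix score of 0.339 (nearest −0.06). R-11 and R-16 are the single negative-side libraries of their groups.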

How the results depend on the processing

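No paired analysis was possible because the labels number the libraries R-1 to R-20 across the groups, so that no number recurs. The difference of the PC1 score between HFD and SFD was near 0 and changed sign with TMM scaling (0.873), unit variance (1.75), all biotypes (1.32), a mean CPM of at least 10 (0.506), log2(CPM + 5) (0.327), variance-stabilized counts (1.09), R-12 included (1.68), R-12 in place of R-1 (0.414), the length and GC trend removed (0.553), and as a percentage of libraries on the positive side (4.44); leaving out 1 library gave −7.94 to 4.33, and no p was under 0.05. The KO difference was 24.9 without R-11 and R-16, and 7.60 to 19.6 with 1 library left out. The positive side held 10 to 11 libraries with 1 left out, and only R-19 changed side, under unit variance and within-group centring. The total count difference was −3011866 to −315898 with 1 left out. Genes at least 2-fold higher on the positive and negative side numbered 3515 and 3689 with no filter beyond 1 count, 352 and 334 in protein-coding genes, and, in alternatives chosen after seeing the data, 778 and 592 with plain CPM library sizes, 269 and 258 on log2(FPM + 1) and 213 and 127 with the trend removed; with 1 library left out they numbered 617 to 759 and 652 to 897. In the main fit, 376 and 320 of the 12344 protein-coding genes were at least 2-fold higher on the positive and negative side. Among the 2971 other genes these counts were 276 and 405. The causes of the changes in the counts were not tested.

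Genes called for HFD in WT numbered 32 by DESeq2, 2 with R-12 in place of R-1, 2 with the PC1 score in place of the side, and 0 to 5 with 1 library left out (1 without R-3, R-13 or R-17; 2 without R-1, R-6, R-15, R-19 or R-20). For HFD in KO they numbered 12 by DESeq2 and 0 to 0 with 1 left out. For KO under SFD they numbered 142 by DESeq2, 24 with no filter, 53 with the PC1 score, 0 with R-12 in place of R-1, 0 without R-11 and R-16, 0 without the side, and 0 to 38 with 1 left out (14, 26, 38 and 22 without R-1, R-2, R-3 and R-10; 5 without R-4; 3 without R-13, R-14 or R-15; 0 without R-11). For KO under HFD they numbered 90 by DESeq2, 30 with the PC1 score, 0 with R-12 in place of R-1, 0 without R-11 and R-16, 2 without the side, and 0 to 49 with 1 left out (49, 28 and 21 without R-1, R-10 and R-20; 0 without R-16; 2 to 5 without R-2, R-4, R-6, R-7, R-8, R-9, R-14, R-17 or R-19). Folds of genes under about 1 FPM rest on few counts: the platelet median was −3.98 in edgeR and −1.44 on log2(FPM + 1).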
